A study of Homo sapiens with 9 samples.

Results

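The mRNAs of 10 secreted signalling proteins that tumour cells make under the control of the transcription factor NF-kB were followed in OVCAR3, an established line of human high-grade serous ovarian cancer cells. They were the genes whose name in the deposited count table was CXCL1, CXCL2, CXCL3, CXCL8, CCL2, CCL20, IL6, IL1B, LIF or TNF, which made 10 of the 58735 genes of that table. The study lowered GPX3, which encodes glutathione peroxidase 3, a secreted selenoenzyme that reduces peroxides, with short hairpin RNAs, and sequenced polyadenylated RNA after 72 h in culture. There were 3 libraries from cells with a scramble hairpin (genotype label WT), 3 from cells with hairpin number 76 (called sh76) and 3 from cells with hairpin number 78 (called sh78), the last 6 with the genotype label GPX3 knock-down. Cells of every group were the same line, grown in RPMI medium with 10% fetal bovine serum and 0.01 mg/ml bovine insulin, so the controls carried a hairpin construct as well. The sources used here do not say how many transductions or clones stand behind a group or whether replicates were separate cultures, so the p-values measure the spread between these libraries, which may be technical.

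CXCL1, CXCL2, CXCL3 and CXCL8 are chemokines that attract neutrophils through the receptors CXCR1 and CXCR2. CCL2 attracts monocytes through CCR2, and CCL20 attracts lymphocytes and dendritic cells through CCR6. IL1B and TNF are inflammatory cytokines that activate NF-kB in the cells they reach, and IL6 and LIF signal through the shared receptor subunit gp130 (IL6ST) to STAT3. In unstimulated cells NF-kB dimers are held in the cytoplasm by inhibitor proteins. Kinases of the IKK complex release them, after which they bind short kappa B elements in the promoters of such genes and also raise the transcription of their own inhibitors. Ovarian carcinoma cells are known to secrete several of these proteins, CXCL8, CXCL1, CCL2 and IL6 among them.

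The kappa B elements are shown first because NF-kB binds such elements and the list was drawn up as NF-kB-driven genes. RefSeq promoters (assembly GRCh38.p14, from 250 bases before to 50 bases after each start) were matched by symbol for 8 of the 10 genes, all except LIF and CCL2. The kappa B consensus, searched on both strands, was found in 5 of these 8 promoters (CXCL1, CXCL2, CXCL3, CCL20 and IL6) and in 5.91% of all 35116 promoters of the table. A 9-base core, GGAATTTCC, which also lies inside the consensus matches of CXCL1, CXCL2 and CXCL3, was found in 4 of the 8 (those 3 and CXCL8) and in 0.461% of all promoters. Neither was found in the IL1B and TNF promoters of the table. The 9-base core is the exact sequence in the CXCL8 promoter, which the consensus does not match. Its share among the 8 is therefore a description and no test. The AP-1 element TGANTCA was found only in the CXCL8 promoter among the 8, and in 7.71% of all promoters. These matches are a description of the letters and not of binding. In the lines that follow, each sequence is written 5′ to 3′ on the strand of its gene, with 20 bases on either side and the match in capitals.
CXCL1, chr4:73869294-73869343, plus strand: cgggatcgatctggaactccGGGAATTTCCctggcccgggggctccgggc
CXCL2, chr4:74099244-74099293, minus strand: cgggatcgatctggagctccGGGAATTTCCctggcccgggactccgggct
CXCL3, chr4:74038739-74038788, minus strand: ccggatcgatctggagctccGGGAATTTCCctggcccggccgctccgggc
CXCL8 (9-base core), chr4:73740458-73740506, plus strand: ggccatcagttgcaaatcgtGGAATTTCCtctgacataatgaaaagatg
CXCL8 (AP-1), chr4:73740412-73740458, plus strand: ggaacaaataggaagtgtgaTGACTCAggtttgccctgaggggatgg
CCL20 (match on the other strand), chr2:227813743-227813792, plus strand: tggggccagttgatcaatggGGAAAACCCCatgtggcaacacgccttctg
IL6, chr7:22727107-22727156, plus strand: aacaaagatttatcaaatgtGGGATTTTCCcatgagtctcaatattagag
The matches of CXCL1, CXCL3 and CCL20 lay 79 to 70 bases before the RefSeq start, that of CXCL2 78 to 69 bases and that of IL6 73 to 64 bases before it. In CXCL8 the core lay 91 to 83 bases and the AP-1 element 137 to 131 bases before the start. The 300-base promoters of CXCL1 and CXCL3 were 82.5% identical, those of CXCL2 and CXCL3 73.8% and those of CXCL1 and CXCL2 71.9%, against 45.2% to 47.9% between any of them and CXCL8.

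CXCL8, CXCL1, CXCL3 and CXCL2 stood in this order along 359 kb of chromosome 4 (GRCh38). CXCL8 lay at chr4:73740506-73743716 and CXCL1 at chr4:73869393-73871242, both on the plus strand. CXCL3 lay at chr4:74036589-74038807 and CXCL2 at chr4:74097035-74099293, both on the minus strand. The span holds 9 protein-coding genes, and of the 5 that are not described here CXCL6 had 143 counts over the 9 libraries, while PF4V1 had 2, PF4 had 8, PPBP had 1 and CXCL5 had 0. CCL2 lay at chr17:34255218-34257203 (plus strand) beside the chemokine genes CCL7, CCL11, CCL8 and CCL13, each of which had 0 counts in all libraries. CCL20 lay at chr2:227805739-227817564 and IL6 at chr7:22725884-22732002, both on the plus strand. IL1B lay at chr2:112829751-112836903 and LIF at chr22:30240447-30246851, both on the minus strand, and TNF at chr6:31575567-31578336 on the plus strand.

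The libraries held 14652965 to 21327562 counts, levels are given as CPM (each count divided by the scaled size of its library), of which 1 stood for 14.5 to 21 counts, and 17023 genes passed the filter on low counts. GPX3, the targeted gene, measured 173, 109 and 117 CPM with the scramble hairpin, 56.8, 55.2 and 55.5 CPM with sh76, and 35.3, 28.4 and 28.3 CPM with sh78, in the order of the replicate numbers. Its log2 fold change against scramble was -1.25 for sh76 (adjusted p = 0.00264) and -2.12 for sh78 (adjusted p = 0.000125, both by edgeR's quasi-likelihood test with Benjamini-Hochberg adjustment over all genes tested, as in every adjusted p below unless a replicate block is named). All 12 markers of ovarian serous carcinoma and epithelium were expressed, and their summed level was 13600 to 14500 CPM with scramble, 12800 to 13900 CPM with sh76 and 11200 to 11900 CPM with sh78. A single library, replicate 2 of sh76, stood apart in some markers of fibroblasts and stroma. It had 142 counts of COL1A2, 53 of COL3A1, 23 of POSTN and 11 of DCN. The other libraries had at most 51, 4, 1 and 3. PDGFRB, FAP and THY1 did not stand apart there, at 10, 19 and 4 counts, with up to 17, 21 and 4 elsewhere. The fold changes of tested members with sh76 are therefore also given without that library. So are the sh76 calls of other named genes, except KDR and CCL28, for which no such value is given. GPX3 with sh76 stayed at -1.25 without it (adjusted p = 0.0198).

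Libraries with the same replicate number deviated together from their group means, with a correlation over genes of 0.14 to 0.39 in 9 pairs. In 18 pairs with different numbers it was -0.31 to 0.06. Deviations sum to 0 within a group for each gene, so the latter range depends on the former and is no separate baseline. The labels do not say what a number marks. A further model that adds the replicate number as a term, called the replicate block below, is given where it changed a call.

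Levels per length, in FPKM, which divides fragments by gene length and library size, differed widely among the 10 genes in the scramble libraries. CXCL1 was the most abundant, with 16.4 FPKM on average (10.7 to 22.2 over the 3 libraries), which placed it at the percentile 86.1 of all protein-coding genes. LIF followed with 3.87 FPKM (3.28 to 4.53), CXCL2 with 2.12 (1.76 to 2.48), CXCL8 with 0.99 (0.785 to 1.13) and CXCL3 with 0.591 (0.492 to 0.708), and the ranges of these 5 genes did not overlap. CCL2 with 0.304 FPKM (0.0963 to 0.439) overlapped IL6 with 0.193 (0.112 to 0.25), and IL6 overlapped CCL20 with 0.151 (0.108 to 0.2). IL1B with 0.0511 FPKM (0.0371 to 0.0752) and TNF with 0.0358 (0 to 0.0694) were lowest and overlapped each other.

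Of the 10 mRNAs, 8 were detected, with at least 1 count, in all 9 libraries. IL1B was detected in 7 and TNF in 8 of them, and neither passed the filter on low counts, which asked for at least 0.589 CPM in at least 3 libraries. CXCL1, CXCL2, CXCL3, CXCL8 and LIF were above that level in every library. CCL20 reached it in 2 sh76 and 2 sh78 libraries and no scramble library, and IL6 in 3 sh76 libraries, 1 sh78 library and no scramble library, so both entered the test only through libraries with a hairpin against GPX3. CCL2 reached it in 2 scramble, 3 sh76 and 3 sh78 libraries, so its scramble libraries alone would not have admitted it.

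**Figure D1:**
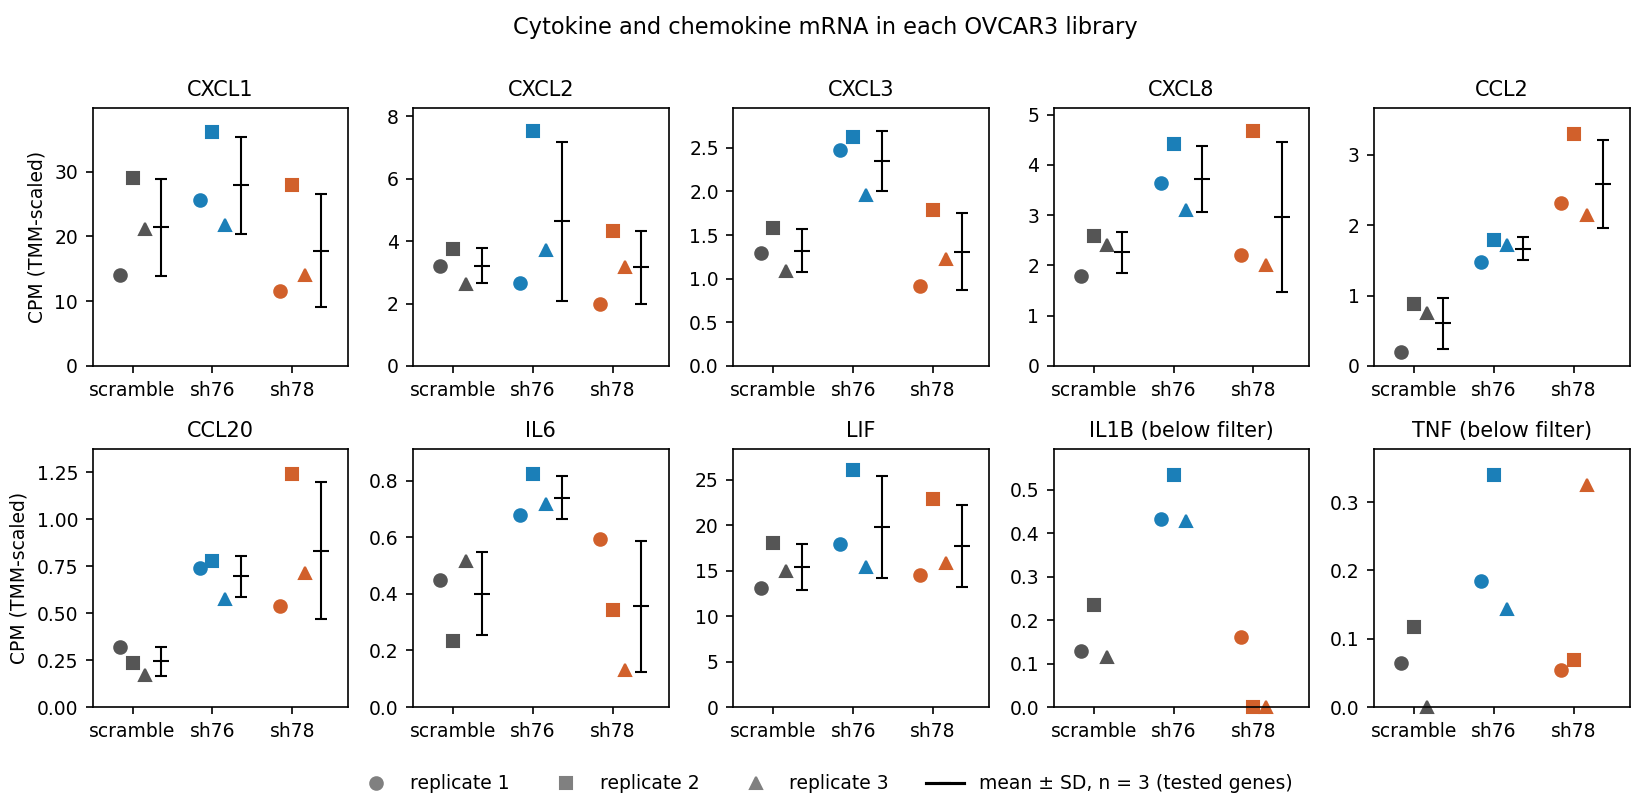
Level of each of the 10 mRNAs in CPM (y axis, from 0, with its own scale per gene) in each library, by hairpin (x axis). Symbols mark the replicate number and the black bar the mean ± SD of 3 libraries for tested genes; for CCL2 all 6 libraries with a GPX3 hairpin lie above all 3 scramble libraries, whereas CXCL1 values of the 3 groups overlap.

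CCL2 was the member that changed most firmly. Scramble libraries held 0.193, 0.88 and 0.746 CPM (3, 15 and 13 counts). Cells with sh76 held 1.48, 1.79 and 1.72 CPM (24, 37 and 36 counts), and those with sh78 held 2.32, 3.3 and 2.14 CPM (43, 48 and 33 counts). All 3 sh78 libraries were above all 3 sh76 libraries, and these above all 3 scramble libraries, with scramble replicate 1 far below the other two. With sh78 CCL2 rose 4.15-fold (log2 fold change 2.05, SE 0.38, 95% confidence interval 1.23 to 2.87, adjusted p = 0.00687), from 0.606 ± 0.364 to 2.59 ± 0.625 CPM (SD, n = 3 libraries each). This was the 1 call among the 8 tested members for sh78, where 4.41% of all genes tested were called. The call held in each fit without 1 of the 9 libraries, with a log2 fold change of 1.65 to 2.40. With sh76, at 1.66 ± 0.163 CPM, the log2 fold change was 1.43 (SE 0.39, interval 0.59 to 2.27, adjusted p = 0.0616), which missed the threshold of 0.05, as did that for each of the other 7 tested members, where 3.58% of all genes tested were called. CCL2 passed for sh76 in the fit with the replicate block (log2 fold change 1.44, adjusted p = 0.00178). Between the hairpins the log2 fold change of sh78 over sh76 was 0.62 (interval -0.08 to 1.33, adjusted p = 0.383), so the hairpins were not distinguished in this gene, and an equal rise or a larger one with sh78 both lie within the interval.

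CCL2 is a product of monocytes, fibroblasts and endothelial cells as well as of tumour cells, so markers of those cells were read in the same libraries. The 12 leukocyte markers summed to 2.51 to 4.05 CPM with scramble, 3.77 to 5.18 CPM with sh76 and 3.92 to 5.17 CPM with sh78, and 6 of them had at most 3 counts in every library, AIF1 with 0 counts. Summed fibroblast and stroma markers were 28.4 to 39.8, 31.7 to 57.7 and 35.9 to 48.1 CPM in the same order, mostly COL1A1, with LUM at 3 counts in all libraries together and all 3 in sh76 replicate 2. Endothelial markers summed to 24.8 to 29.2, 25.7 to 33.5 and 32.9 to 43.3 CPM, with EMCN at 0 counts. Among them KDR, which encodes a VEGF receptor, rose with sh76 (log2 fold change 0.55, adjusted p = 0.0396) and with sh78 (log2 fold change 1, adjusted p = 0.00087), from 9.39 ± 0.666 CPM to 13.7 ± 1.63 and 18.8 ± 2.47 (SD, n = 3). KDR was the 1 gene called among the 5 tested endothelial markers with each hairpin, without the block, beside 3.58% and 4.41% of all genes. No value for KDR without sh76 replicate 2 is given. The block called KDR alone with sh76, and KDR and ERG (adjusted p = 0.012) with sh78, all higher. It also called 1 of 3 tested stroma markers, COL1A1, higher with sh76 (adjusted p = 0.0137) and sh78 (adjusted p = 0.00496), and 0 leukocyte markers. Of all genes the block called 20.4% and 19.9%. Mean levels of ERG and CDH5 were also higher with sh76 and sh78, whereas those of VWF and TEK were lower. ERG measured 7.01, 8.13 and 9.53 CPM with scramble, sh76 and sh78, and TEK 0.877, 0.375 and 0.417 CPM. Of the untested ones, CLDN5 was lower with each hairpin and PECAM1 with sh78 only. KDR is itself part of the endothelial sum, so these are not separate signals. The sums and KDR moved with the groups in part, and their part in the CCL2 result was not tested. Without sh76 replicate 2 the log2 fold change of CCL2 was 1.37 for sh76 (adjusted p = 0.188) and 2.05 for sh78 (adjusted p = 0.0133). In the block fit without that library these values were 1.63 (adjusted p = 0.00567) and 2.09 (adjusted p = 1.77e-05). In bulk RNA, more cells with CCL2 mRNA and more CCL2 mRNA per cell cannot be told apart.

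CCL20 had 5, 4 and 3 counts with scramble, and the sh76 libraries had 12, 16 and 12, the sh78 libraries 10, 18 and 11. In CPM these were 0.321, 0.235 and 0.172, then 0.74, 0.775 and 0.573, then 0.539, 1.24 and 0.715, so that every library with a GPX3 hairpin was above every scramble library. The log2 fold change was 1.5 for sh76 (interval 0.44 to 2.56, adjusted p = 0.122) and 1.73 for sh78 (interval 0.67 to 2.8, adjusted p = 0.0674), and neither passed. Both were below 0.05 once the replicate block was added, with adjusted p = 0.0395 and 0.0163. CCL20 entered the test through the libraries with a GPX3 hairpin alone, so these p-values are of a gene let in by the groups where it was high. Without sh76 replicate 2 the log2 fold change for sh76 was 1.41 (adjusted p = 0.315), and in the block fit without that library the adjusted p was 0.0821. Sh78 over sh76 gave a log2 fold change of 0.23 (adjusted p = 0.852).

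CXCL1, a strong neutrophil attractant, measured 14, 29 and 21.2 CPM with scramble, 25.7, 36.2 and 21.8 CPM with sh76 and 11.6, 27.9 and 14 CPM with sh78. The groups overlapped, and replicate 2 was the highest library in each. The log2 fold change was 0.38 for sh76 (interval -0.51 to 1.27, adjusted p = 0.684) and -0.28 for sh78 (interval -1.19 to 0.64, adjusted p = 0.801). The sh76 value was 0.14 without sh76 replicate 2 (adjusted p = 0.928), and ran from 0.14 to 0.65 over the fits without 1 library. In the block fit without sh76 replicate 2 it was 0.5 (adjusted p = 0.0635). Sh78 over sh76 gave -0.66 (adjusted p = 0.481), which passed with the replicate block at -0.69 (adjusted p = 0.0187).

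CXCL3, the least abundant of the trio of related chemokines, measured 1.29, 1.58 and 1.09 CPM with scramble, 2.47, 2.62 and 1.96 CPM with sh76 and 0.916, 1.79 and 1.23 CPM with sh78. The sh76 libraries were all above the scramble and the sh78 libraries, which overlapped each other. Its log2 fold change was 0.82 for sh76 (SE 0.29, interval 0.2 to 1.45, adjusted p = 0.149), -0.03 for sh78 (adjusted p = 0.98) and -0.85 for sh78 over sh76 (adjusted p = 0.144). The first and the last passed with the replicate block, at 0.83 (adjusted p = 0.0269) and -0.86 (adjusted p = 0.025). Without sh76 replicate 2 the sh76 value was 0.73 (adjusted p = 0.387), and in the block fit without it both missed the threshold (adjusted p = 0.0576 and 0.0524).

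CXCL2 measured 3.21, 3.76 and 2.64 CPM with scramble, 2.65, 7.51 and 3.72 CPM with sh76, and 1.99, 4.33 and 3.18 CPM with sh78. Replicate 2 of sh76 stood above all other libraries. The log2 fold change was 0.54 for sh76 (adjusted p = 0.495) and -0.03 for sh78 (adjusted p = 0.982). Without sh76 replicate 2 the sh76 value was 0 (adjusted p = 0.998). In the block fit without that library it was 0.2 (adjusted p = 0.678).

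CXCL8, which encodes interleukin 8, measured 1.8, 2.58 and 2.41 CPM with scramble, 3.64, 4.41 and 3.1 CPM with sh76, and 2.21, 4.68 and 2.01 CPM with sh78. The sh76 libraries were all above the scramble libraries, and among the sh78 libraries only replicate 2 was. The log2 fold change was 0.71 for sh76 (interval 0.06 to 1.36, adjusted p = 0.239) and 0.37 for sh78 (adjusted p = 0.619). With the replicate block sh76 passed (0.70, adjusted p = 0.0189). Without sh76 replicate 2 the sh76 value was 0.56 without the block (adjusted p = 0.533) and 0.83 with it (adjusted p = 0.0351).

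Reads of the CXCL1, CXCL2 and CXCL3 transcripts can in part be shared. Stretches of 100 bases common to CXCL2 and CXCL3 made 5.0% of those of CXCL2 and 3.27% of those of CXCL3, and CXCL1 shared none with either. The read length is not given in the sources used here, and the values of CXCL2 and CXCL3 carry that uncertainty.

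LIF, a gp130 cytokine, measured 13.1, 18.1 and 15 CPM with scramble, 17.9, 26.1 and 15.4 CPM with sh76 and 14.5, 22.9 and 15.8 CPM with sh78. The groups overlapped. The log2 fold change was 0.36 for sh76 (interval -0.13 to 0.85, adjusted p = 0.448) and 0.20 for sh78 (adjusted p = 0.735). With the replicate block sh76 passed at 0.34 (adjusted p = 0.0098), and without sh76 replicate 2 in the fit without the block it was 0.11 (adjusted p = 0.877). In the block fit without that library the sh76 value was 0.28 and the call was lost (adjusted p = 0.138).

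IL6 had 7, 4 and 9 counts with scramble, 11, 17 and 15 with sh76, and 11, 5 and 2 with sh78, or 0.4 ± 0.147, 0.739 ± 0.0754 and 0.355 ± 0.232 CPM (SD, n = 3). The sh76 libraries were all above the others, and scramble and sh78 overlapped. The log2 fold change was 0.88 for sh76 (interval -0.16 to 1.92, adjusted p = 0.378), -0.12 for sh78 (adjusted p = 0.944) and -1 for sh78 over sh76 (adjusted p = 0.345), and none passed with the replicate block either. Without sh76 replicate 2 the sh76 value was 0.79 (adjusted p = 0.609). The libraries do not keep strand. STEAP1B, which overlaps the IL6 gene, had 4 to 18 counts per library, so reads of the overlap cannot be assigned with certainty. For LIF the overlapping genes LIF-AS1 and AC004264.1 had 0 to 2 and 8 to 38 counts.

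IL1B had 2, 4 and 2 counts with scramble. Those with sh76 numbered 7, 11 and 9 and those with sh78 numbered 3, 0 and 0, so the sh76 libraries were above all others. TNF had 1, 2 and 0 counts with scramble, 3, 7 and 3 with sh76, and 1, 1 and 5 with sh78, and here scramble and sh78 overlapped. Neither was part of the main test. In a fit with no filter on low counts the log2 fold change of IL1B was 1.5 for sh76 (adjusted p = 0.474), -1.3 for sh78 (adjusted p = 0.743) and -2.8 for sh78 over sh76 (adjusted p = 0.0666), and those of TNF were 1.78, 1.19 and -0.59 (adjusted p = 0.603, 0.743 and 0.872).

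**Figure D2:**
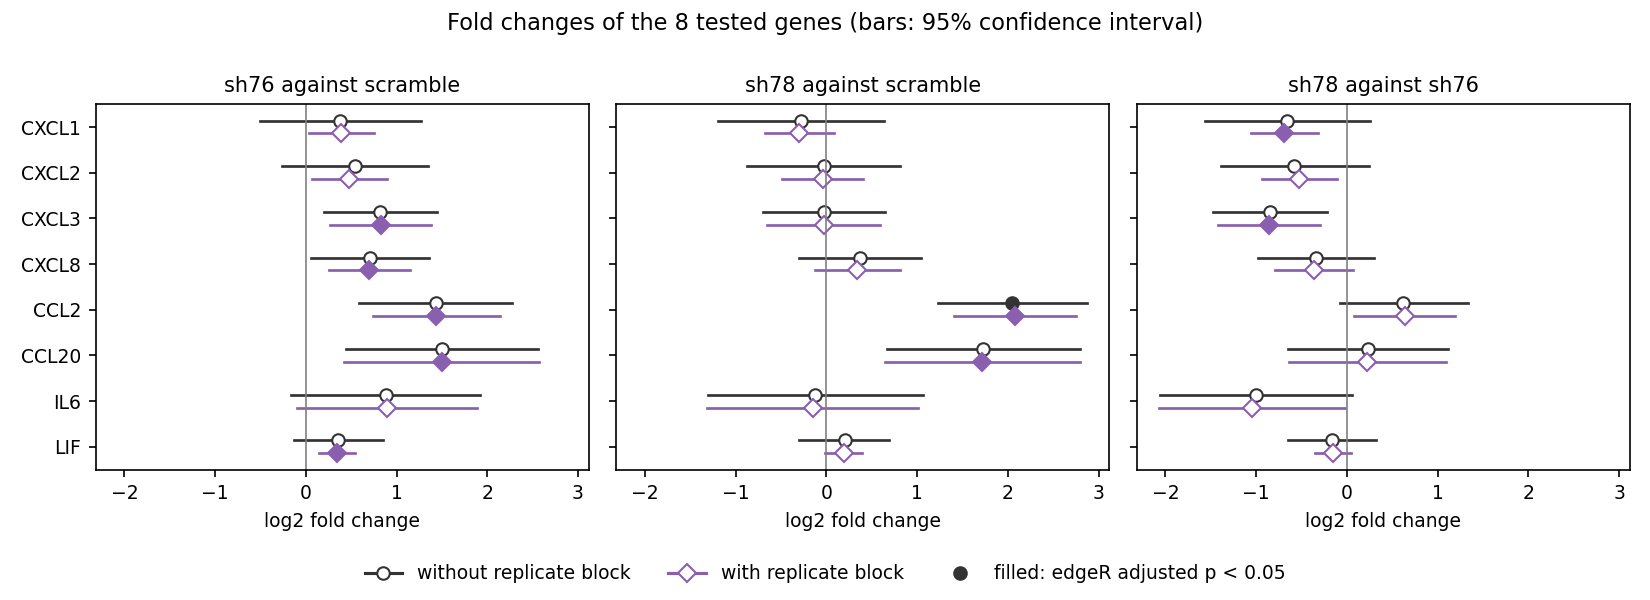
Log2 fold change (x axis) of the 8 tested members in the 3 comparisons, by edgeR without (circles) and with (diamonds) the replicate block; bars are 95% confidence intervals and filled symbols have an adjusted p below 0.05. Without the block only CCL2 in sh78 is filled, and with it the sh76 panel has 5 filled genes, the sh78 panel 2 and the panel of sh78 against sh76 has 2, both below 0.

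Counted over the list, with sh76 all 8 tested members had a positive log2 fold change, 0 were called without the block, and 4 had an unadjusted p below 0.05 by edgeR. DESeq2, a second count test, called 1, beside 880 genes over all, and that member was CCL2 (adjusted p = 0.0236). It gave no adjusted p for CCL20 and IL6 in any comparison, so its counts do not cover them. With the replicate block 5 of 8 were called higher (CXCL3, CXCL8, CCL2, CCL20 and LIF), where 20.4% of all genes tested were called. With sh78 4 log2 fold changes were positive and 4 negative, and the block called 2 higher (CCL2 and CCL20), where 19.9% of all genes were called. Between the hairpins 0 members were called without the block, where 3.7% of all genes were called, and 1 had an unadjusted p below 0.05 by edgeR. DESeq2 called 0 there, beside 856 genes over all. The block called 2 lower with sh78 (CXCL1 and CXCL3), where 18.3% of all genes were called. In the block fit without sh76 replicate 2, chosen after seeing the data, these counts were 2 for sh76 (CXCL8 and CCL2), 2 for sh78 and 1 between the hairpins (CXCL1). Over all genes that fit called 2225, 3197 and 2118.

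CCL20 and IL6 were admitted only by libraries with a GPX3 hairpin, and CCL2 reached the filter level in 2 of the 3 scramble libraries. The counts are therefore repeated for the 5 members above that level in all 9 libraries (CXCL1, CXCL2, CXCL3, CXCL8 and LIF). This leaves out CCL2, the 1 member called with sh78. Without the block 0 of the 5 were called in any of the 3 comparisons by edgeR, beside 3.58%, 4.41% and 3.7% of all genes. The block called 3 higher with sh76, 0 with sh78, and 2 lower between the hairpins, beside 20.4%, 19.9% and 18.3% of all genes. Without sh76 replicate 2 it called 1, 0 and 1, beside 2225, 3197 and 2118 genes over all.

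All 3 libraries lay above all 3 scramble libraries in 7 of the 10 genes with sh76 (CXCL3, CXCL8, CCL2, CCL20, IL6, IL1B and TNF) and in 2 with sh78 (CCL2 and CCL20). IL1B and TNF were not among the genes tested. Of the 8 tested members 5 lay so with sh76 and 2 with sh78, beside 10.8% and 10.2% of all genes tested. Of the 5 members above the filter level in all 9 libraries, 2 lay so with sh76 (CXCL3 and CXCL8) and 0 with sh78. The median log2 fold change of those 5 genes was 0.54 with sh76 (0.36 to 0.82) and -0.03 with sh78 (-0.28 to 0.37), beside 0.01 over all genes tested in both comparisons. Without sh76 replicate 2 the sh76 median was 0.14 (0 to 0.73). Replicate 2 of scramble, the highest of its group in each of these genes, stayed in that fit. In the block fit without sh76 replicate 2, chosen after seeing the data, the sh76 median was 0.5 (0.2 to 0.95). The sh76 and sh78 comparisons used the same scramble libraries.

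**Figure D3:**
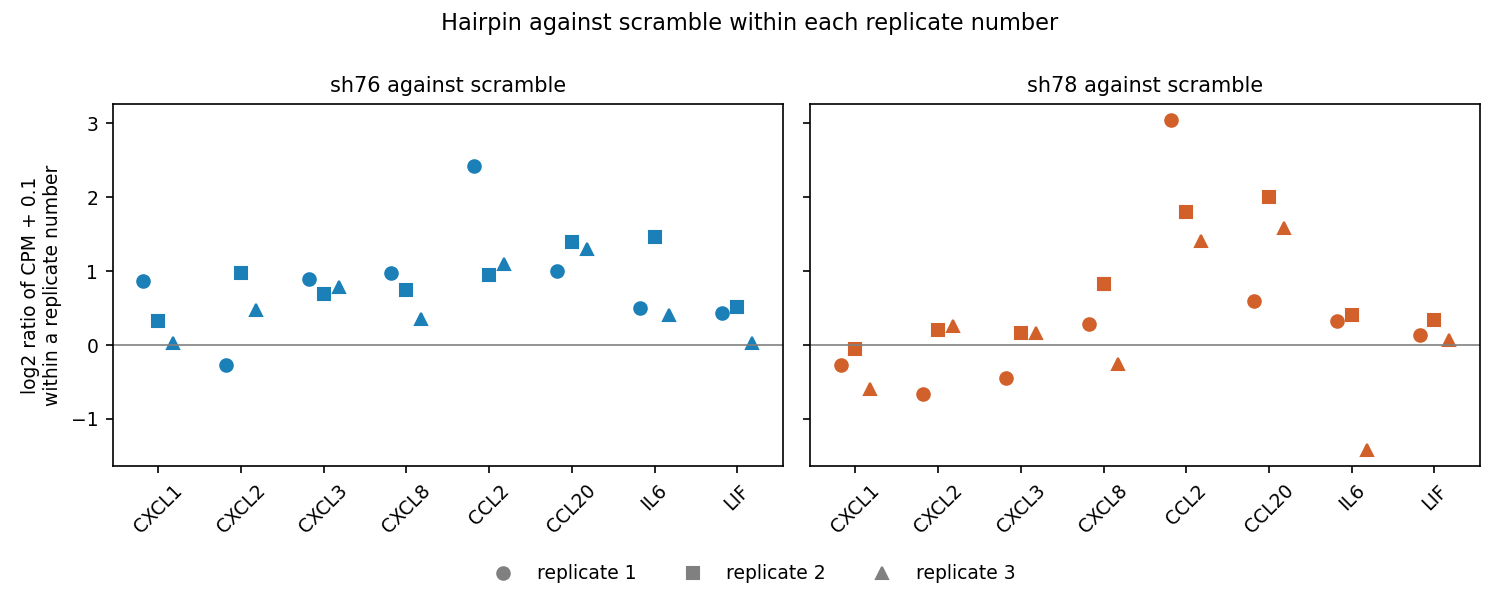
Log2 ratio of a hairpin library to the scramble library of the same replicate number, on CPM plus 0.1 (y axis), for the 8 tested members (x axis); symbols mark the replicate number. CXCL3 with sh76 keeps to 0.69 to 0.89 over its 3 pairs, whereas CXCL2 with sh76 runs from -0.27 to 0.98, and CCL2 is above 0 in all 6 pairs.

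Much of the spread in the more abundant members followed the replicate number. Replicate 2 was the highest library of its group in all 3 groups for CXCL1, CXCL2, CXCL3, CXCL8, CCL2 and LIF. In the block fit, in a test chosen after these values were seen, the replicate number was called for 4 of the 8 members, where 28.8% of all genes tested were called. The log2 difference of replicate 2 over replicate 1 was 0.98 for CXCL2, 0.89 for CXCL1, 0.61 for CXCL8 and 0.56 for LIF. For CXCL1, CXCL2 and LIF this was larger than the difference of either hairpin from scramble. The test was of any difference among the 3 replicate numbers. Its adjusted p was 0.000701 for CXCL2, 0.00559 for CXCL1, 0.0334 for CXCL8 and 9.3e-06 for LIF. The term was not called for CXCL3, CCL2, CCL20 and IL6, the members with few counts, with adjusted p from 0.276 to 0.811.

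Members rose and fell together across libraries to different degrees, as a description over 9 libraries that share replicate numbers. Among CXCL1, CXCL2, CXCL3, CXCL8 and LIF, Pearson's r of deviations from the group means in log2 CPM ran from 0.56 to 0.94 over 10 pairs, highest for CXCL1 with LIF (0.94) and CXCL1 with CXCL8 (0.93). IL6 did not move with the others, at -0.43 to 0.1 over 7 pairs. CCL2 and CCL20 had r = 0.75 over all 9 libraries and -0.13 within groups. Among 11042 protein-coding genes with a mean of at least 1 FPKM, the patterns closest to CXCL1 over the 9 libraries were those of DGKA (r = 0.97), STOX2 (0.96) and PEX6 (0.96). Closest to LIF were GPR158 (0.95), CDC5L (0.92) and SRSF1 (0.91), and closest to CXCL2 were PSMC6 (0.93), DPCD (0.92) and ATP2C1 (0.89). These are the top values of a search over 11042 genes with only 9 libraries, and shared regulation was not tested.

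The chemokine receptors for these ligands were barely detected. CXCR1, CXCR2 and CCR6 had 1 count each over all 9 libraries and CCR2 and ACKR1 had 0, which leaves 8 of the 13 listed receptors tested. With sh78 1 of the 8 was called lower and 0 higher, where 4.41% of all genes were called. The list median was -0.26 beside 0.01 over all genes. The replicate block called 5 lower and 0 higher, where it called 19.9% of all genes. The gene called without the block was IL1R1, the signalling receptor of IL1B, at 147 ± 3.08 CPM with scramble, 124 ± 11.1 with sh76 and 78.2 ± 11.7 with sh78 (SD, n = 3). It fell by 0.91 on the log2 scale with sh78 (SE 0.1, adjusted p = 0.000203) and was lower with sh78 than with sh76 (-0.67, adjusted p = 0.0021), while its log2 fold change with sh76 was -0.24 (adjusted p = 0.199). With sh76 1 of the 8 was called lower, with a list median of -0.01, where 3.58% of all genes were called. This was IL1RAP, the accessory chain that pairs with IL1R1, at 87 ± 16.8 CPM with scramble, 54.4 ± 8.09 with sh76 and 62 ± 8.49 with sh78. Its log2 fold change was -0.68 with sh76 (adjusted p = 0.035, between 0.0177 and 0.137 without 1 library, and kept in 5 of 9 such fits; 0.137 without sh76 replicate 2) and -0.49 with sh78 (adjusted p = 0.113, 3.78e-09 with the replicate block).

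All 15 listed NF-kB subunits and IKK-side kinases and adaptors were tested. With sh76 2 were called higher and 0 lower (median 0.05), where 3.58% of all genes were called. These became 5 higher and 0 lower with the replicate block, where 20.4% of all genes were called. With sh78 edgeR called 0 (median 0.02), where 4.41% of all genes were called. There was 1 unadjusted p below 0.05 with sh78, with 0 calls by DESeq2 (989 genes over all) and 0 with the replicate block. MYD88, the adaptor of the IL1 receptor and Toll-like receptors, measured 27 ± 1.49 CPM with scramble, 35 ± 0.488 with sh76 and 30.8 ± 1.82 with sh78, with a log2 fold change of 0.37 for sh76 (adjusted p = 0.0269, kept in 4 of 9 fits without 1 library and lost without sh76 replicate 2 at 0.0998) and 0.19 for sh78 (adjusted p = 0.274). MAP3K14, the kinase NIK of the non-canonical branch, measured 12.8 ± 0.68, 17.6 ± 1.65 and 12.7 ± 0.88 CPM in the same order. Its log2 fold change of 0.45 with sh76 (adjusted p = 0.0475) passed in 0 of the 9 fits without 1 library (adjusted p = 0.0736 without sh76 replicate 2).

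All 16 feedback and target genes of NF-kB, such as its inhibitors NFKBIA and TNFAIP3, were tested. With each hairpin 1 was called higher and 0 lower (medians 0.04 and 0.15), beside 3.58% and 4.41% of all genes. The replicate block called 2 higher and 0 lower with sh76, and 3 higher and 4 lower with sh78, beside 20.4% and 19.9% of all genes. The gene called without the block was TNFAIP2, a gene induced by TNF, at 554 ± 20.4 CPM with scramble, 753 ± 27.1 with sh76 and 793 ± 57.8 with sh78. TNFAIP2 rose with sh76 (log2 fold change 0.44, adjusted p = 0.00187) and with sh78 (0.52, adjusted p = 0.000406), the former also without sh76 replicate 2 (0.45, adjusted p = 0.012), and the groups with a GPX3 hairpin did not overlap the scramble group.

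Downstream of IL6 and LIF, 12 of 13 listed STAT3 pathway genes were tested. With sh76 1 was called higher and 1 lower (median 0.05), where 3.58% of all genes were called. With sh78 0 were called higher and 1 lower (median 0), where 4.41% were called. The replicate block called 3 higher and 3 lower with sh76, and 2 higher and 3 lower with sh78, again beside 20.4% and 19.9% of all genes. CEBPB, a transcription factor that works with NF-kB at cytokine promoters, fell from 209 ± 13.6 CPM to 171 ± 11.4 with sh76 (log2 fold change -0.29, adjusted p = 0.0351) and 160 ± 8.58 with sh78 (-0.39, adjusted p = 0.00618). The sh76 call was kept in 5 of 9 fits without 1 library (adjusted p = 0.177 without sh76 replicate 2) and the sh78 call in all 9. MCL1, an anti-apoptotic STAT3 target, measured 423 ± 20.8, 508 ± 14.2 and 463 ± 3.37 CPM, and its log2 fold change was 0.26 with sh76 (adjusted p = 0.0177, kept in 5 of 9 such fits, and 0.0742 without sh76 replicate 2) and 0.13 with sh78 (adjusted p = 0.239).

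None of the 9 regulators of cytokine mRNA decay, such as ZFP36 and ZC3H12A, was called by edgeR without the block in either comparison with scramble (medians 0.07 and 0.04), and none of the 10 tested of 11 genes that process or release IL1B and TNF (medians 0.05 in both). At an unadjusted p below 0.05 edgeR had 3 decay regulators with sh76 and 1 with sh78, and 2 and 0 of the processing genes. DESeq2 called 0 in each case, beside 880 and 989 genes over all. With the replicate block 2 decay regulators were called higher and 1 lower with sh76, and 3 higher and 0 lower with sh78, and of the processing genes 2 were higher with sh76 and 0 were called with sh78, where the block called 20.4% and 19.9% of all genes. Among 34 other cytokines and chemokines 21 were tested and 0 were called with either hairpin without the block, with medians of 0.29 and 0.12. Of these 6 with sh76 and 4 with sh78 had an unadjusted p below 0.05 by edgeR. DESeq2 called 1 in each, beside 880 and 989 genes over all. The block called 5 higher with sh76 and 3 higher with sh78, and 0 lower, beside the same 20.4% and 19.9%. Without the block edgeR called 3.58% and 4.41% of all genes.

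**Figure D4:**
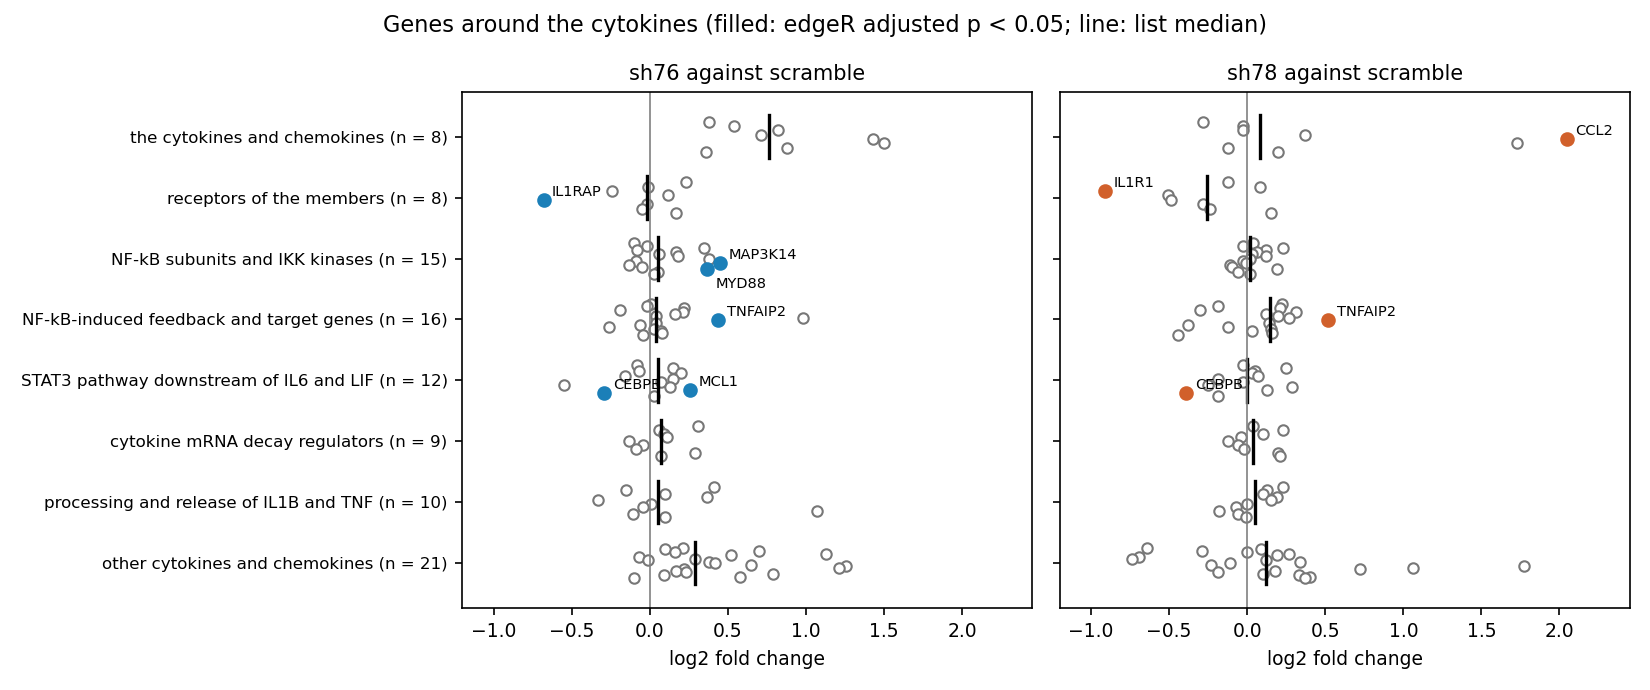
Log2 fold change (x axis) of each tested gene of the cytokine and chemokine list and 7 lists of related genes (rows, with the number tested) in sh76 (left) and sh78 (right) against scramble, by edgeR without the replicate block; filled points have an adjusted p below 0.05 and the vertical bar is the list median. With sh76 the cytokine row lies wholly to the right of 0, with 0 filled points, while with sh78 CCL2 at 2.05 is its 1 filled point.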

How the data were processed

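RNA-seq libraries were made from poly-T-purified mRNA by a non-directional protocol, per the labels' protocols. HISAT2 2.0.5, featureCounts 1.5.0-p3 and build hg38 are named in the submitters' processing notes, without their settings. The authors deposited raw counts per gene, and FPKM values that equalled those counts per length and per library size of 98.09% to 103% of the total. All 58735 identifiers were found in GENCODE 29, 58724 with the same start and end.

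Counts were filtered (filterByExpr, minimum count 10, minimum total 15), scaled by TMM and tested with edgeR 4.0.16 (R 4.3.3) in 1 fit over 9 libraries, with Benjamini-Hochberg adjustment over 17023 genes and calls at an adjusted p below 0.05. The common biological coefficient of variation was 10.4%. A confidence interval is at 95% and covers the spread between libraries. No pair of libraries within a group agreed within counting noise (chi-square per degree of freedom 5.2 or more). A replicate-block fit (4 residual degrees of freedom, against 6) was used because same-numbered libraries correlated above 0.1 in each of 9 pairs (0.14 to 0.39); the pairing comes from these data, not from the labels. The test script was tested on simulated data.

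The members and the gene lists were chosen with earlier results of these data known. From each list of related genes the text names up to 4 called genes with the smallest adjusted p against scramble; GPX3 checks the labels. Alternatives were DESeq2 1.42.0, RLE scaling, other filters, limma 3.58.1 on log2(FPKM + 1) and log2(FPKM + 0.1), the summed CXCL1, CXCL2 and CXCL3 counts, 2-group fits and leaving out each library.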

Additional observations from a re-analysis of the deposited data

Results flagged for a closer look

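Direct comparison of the hairpins separated 3 of the genes named here, in a test of the difference itself (edgeR's quasi-likelihood test with Benjamini-Hochberg adjustment). GPX3 was lower with sh78 than with sh76 (log2 fold change -0.86, adjusted p = 0.0194), in 3 of 3 replicate numbers. The call was kept in 4 of 9 fits without 1 library. IL1R1, the IL1B receptor, was lower with sh78 (-0.67, adjusted p = 0.0021), and kept its call in 9 of 9 such fits. MAP3K14 was lower with sh78 (-0.46, adjusted p = 0.0438) and kept its call in 1 of 9.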

How the results depend on the processing

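CCL2 with sh78 was called in all 17 alternatives that tested it (adjusted p from 3.37e-06 to 0.0394). The filter of a mean of at least 50 counts left the gene out, with 0 members called there. CCL2 with sh76 was called in 4 of 17 alternatives, namely DESeq2, no filter on low counts and the replicate block with and without sh76 replicate 2. Members called numbered 1 for sh76 by DESeq2 and 1 with no filter, and 2 for sh78 by limma on log2(FPKM + 0.1), CCL20 being the second. With each library left out, members called stayed at 0 for sh76, 1 for sh78 and 0 between the hairpins, while genes called ranged from 237 (without sh76 replicate 2) to 655, from 418 (without scramble replicate 2) to 810, and from 273 (without sh76 replicate 2) to 780.

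The replicate block raised genes called from 610, 750 and 629 to 3467, 3388 and 3117, including 610, 749 and 625 of the same genes, and members called to 5, 2 and 2. With the block and sh76 replicate 2 left out, an alternative chosen after seeing the data, genes called were 2225, 3197 and 2118 and members 2, 2 and 1. With no filter genes called were 1149, 1212 and 1125, and by DESeq2 880, 989 and 856. The split of calls between the hairpins, 336 higher and 293 lower, was 206 and 244 by limma on log2(FPKM + 1) and 195 and 235 on log2(FPKM + 0.1). The cause was not tested.

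Of the members' alternatives 394 kept direction and side of the threshold, 15 newly passed and 11 changed sign, none of the last with a call. These all came from leaving out 1 library. With sh78 against scramble, CXCL2 then ranged from -0.32 to 0.22, CXCL3 from -0.31 to 0.19, CXCL8 from -0.11 to 0.58, IL6 from -0.76 to 0.25, LIF from -0.03 to 0.32 and the kinase gene MAP3K14 from -0.05 to 0.04. Between the hairpins CCL20 ranged from -0.16 to 0.48 and LIF from -0.39 to 0.09. The single values past 0 were 0.10 and 0.22 for CXCL2, 0.12, 0.19 and 0.01 for CXCL3, 0.11 and 0.25 for IL6 and 0.03 and 0.04 for MAP3K14. Depth limits CCL20, IL6, IL1B and TNF, which had at most 18 counts in a library, so their differences are the least certain.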

Other observations

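Some cytokines outside the 10, chosen after their values were seen, had sizeable fold changes that missed the threshold by edgeR. CCL28, a mucosal chemokine, measured 198 ± 10.5 CPM with scramble, 283 ± 38.5 with sh76 and 227 ± 39 with sh78 (SD, n = 3), with a log2 fold change of 0.52 for sh76 (adjusted p = 0.0532, 0.00542 with the replicate block). CSF1, the macrophage growth factor, measured 8.38 ± 1.8, 9.71 ± 2.64 and 13.8 ± 3.09 CPM, with a log2 fold change of 0.72 for sh78 (adjusted p = 0.104, 1.64e-05 with the block). IL32 measured 0.235 ± 0.194, 0.576 ± 0.17 and 0.839 ± 0.432 CPM, with a log2 fold change of 1.77 for sh78 (adjusted p = 0.118, 0.0189 with the block).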
